A study of Mus musculus with 6 samples.

Results

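The integrin and laminin genes were examined in ipsilateral L3-5 dorsal root ganglia (DRG) of young adult wild-type C57BL/6 mice on day 14 after ankle surgery, taken after perfusion with saline. Members were chosen by gene symbol from the gene table, which gave 26 integrin subunits and 11 laminin chains, 37 of the 19306 genes with values. In the LAS group both lateral ankle ligaments (ATFL and CFL) were transected under a skin incision, whereas the sham group received the incision with the ligaments left intact. Each group had 3 libraries, and the number and sex of the mice in a library are not stated, so the p-values speak only of the spread among the 6 libraries. Levels are in FPKM, fragments scaled to transcript length and to the mapped fragments of the library, and can be set beside each other between genes.

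Laminins are the heterotrimers, of an alpha, a beta and a gamma chain, around which basement membranes form. In a ganglion such membranes enclose each neuron with its satellite glia, each Schwann cell and its axon, and the blood vessels. Integrins are receptors of an alpha and a beta subunit that bind laminins, collagens, fibronectin or the counter-receptors on other cells and link them to the actin cytoskeleton. In peripheral nerve, laminin and its receptors are known for their part in myelination by Schwann cells and in axon regrowth, while the leukocyte integrins serve the adhesion and migration of blood cells.

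Neuronal RNA was abundant in all libraries, with Uchl1, a neuronal ubiquitin hydrolase, at 2119 to 2204 FPKM in LAS and 2102 to 2338 FPKM in sham libraries. The FPKM values of a library summed to between 404558 and 411642 in LAS and between 398503 and 448142 in sham libraries. Sham replicate 3 stood apart, with a mean correlation of 0.969 with the other libraries against 0.984 to 0.986 for the other 5, and it was the highest library for 33.4% of all 14006 genes tested. Its neutrophil and marrow myeloid markers (14 of 14 tested) summed to 2347 FPKM, against 135 to 476 FPKM in LAS libraries and 79.9 and 116 FPKM in the other sham libraries, and its 13 tested skeletal muscle markers summed to 2635 FPKM, against 111 to 386 FPKM in the LAS libraries and 114 and 338 FPKM in the other sham libraries. LAS replicate 2 held 1170 FPKM of the 11 tested leptomeningeal markers, against 211 to 303 FPKM elsewhere. Values are therefore given with and without sham replicate 3 where they rest on it.

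All 37 members were above 0 FPKM in every library. Itgb1, the beta subunit shared by most integrins of neural and matrix cells, was the most abundant member. It was at 66.8, 63.85 and 67.61 FPKM in LAS and 61.56, 62.21 and 64.24 FPKM in sham libraries. Itga7, a laminin receptor subunit known from axon regeneration and from muscle, followed at 50.61, 44.79 and 48.92 FPKM in LAS and 51.9, 50.5 and 48.59 FPKM in sham libraries. These 2 genes were separated by their ranges from each other and from all other members. Further down the order of medians, Itga3 lay wholly above Lamb1, Itga6 above Lama4, Itgav above Lama5 and Lama3 above Itga2, and all other neighbours overlapped. Itga3, which also encodes a laminin receptor subunit, was at 23.91, 25.54 and 23.49 FPKM in LAS and 24.82, 27.19 and 22.65 FPKM in sham libraries. Itgb4, which pairs with the alpha6 subunit in Schwann cells and epithelia, was at 14.57, 23.33 and 20.93 FPKM in LAS and 21.26, 18.03 and 15.16 FPKM in sham libraries. The other members at 10 FPKM or more in all libraries or at the median were Itgb5, Itga6, Lamb1, Lamb2 and Lamc1.

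**Figure D1:**
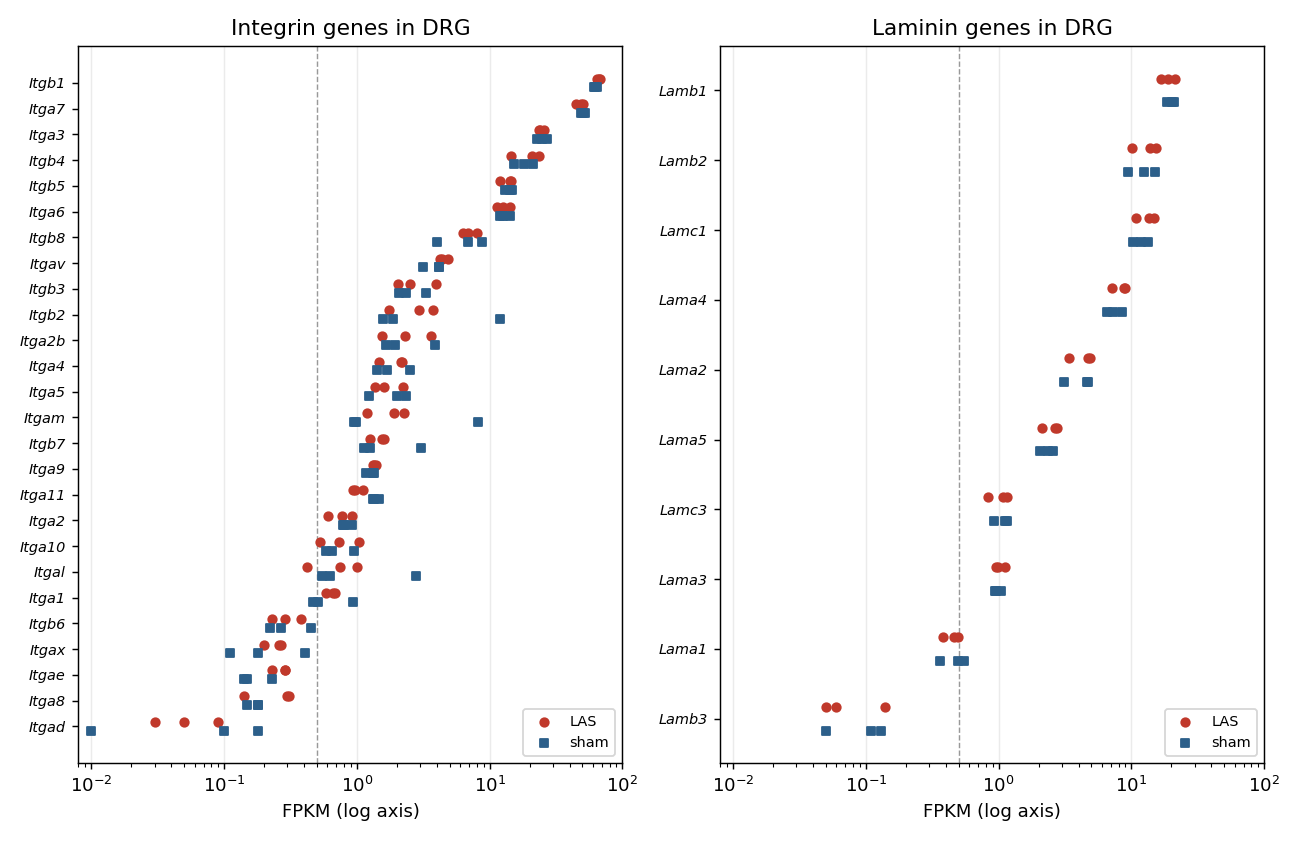
Level of each integrin gene (left) and of 10 of the 11 laminin genes (right) in FPKM on a log axis, ordered by the median over 6 libraries. Red circles are the 3 LAS libraries, blue squares the 3 sham libraries, and the dashed line marks 0.5 FPKM, the level used to choose genes for testing. Itgb1 and Itga7 lie at 44.79 FPKM or more in every library, and Itgam, Itgb2 and Itgal each have 1 sham library, replicate 3, far to the right.

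The 3 laminin-binding alpha subunits, Itga3, Itga6 and Itga7, together reached 82.8 to 86.7 FPKM in LAS and 83.2 to 90.8 FPKM in sham libraries. Itga7 alone made up 45% to 47.8% of the summed integrin alpha level in LAS libraries, against 43.4% to 48.2% in sham libraries. The 4 collagen-binding alpha subunits (Itga1, Itga2, Itga10 and Itga11) together reached 3.02 to 3.29 FPKM in LAS and 3.38 to 3.85 FPKM in sham libraries. Laminin receptor subunits were thus far more abundant than collagen receptor subunits at the RNA level in every library.

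Among laminin chains, Lamc1 dominated the gamma sum, while several chains shared the alpha sum and Lamb1 and Lamb2 the beta sum. Lama4, the alpha chain of laminins found around vessels and Schwann cells, made up 49.3% to 50.8% of the laminin alpha sum in LAS libraries, against 45.8% to 50.2% in sham libraries. Lama2, the alpha chain of the main endoneurial laminin, whose loss causes muscular dystrophy with nerve defects, made up 24% to 27.5% in LAS libraries, against 23.9% to 29.7% in sham libraries. Lama5 was at 14.9% to 15.5% in LAS libraries, against 15% to 15.7% in sham libraries, while Lama3, an alpha chain of epithelial laminin, and Lama1, known from the embryo, were each at or below 7.38%. Lamb1 exceeded Lamb2 in all libraries, by 1.24 to 1.65 times in LAS libraries, against 1.36 to 1.97 times in sham libraries, and Lamb3 was at or below 0.14 FPKM in all 6. Lamc1, the gamma chain of most laminins, made up 87% to 89.3% of the gamma sum in LAS libraries, against 86.5% to 87.3% in sham libraries. The summed level of Lamb1 and Lamb2 was 2.49, 2.30 and 2.61 times that of Lamc1 in LAS libraries and 2.66, 2.82 and 2.72 times in sham libraries, so the groups did not overlap. This was 1 of 10 ratios computed, of which 2 did not overlap between the groups, the other being that of Itga11 to Itgb1, and with 3 libraries against 3 an exact permutation test cannot give a p under 0.10.

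The comparison of LAS with sham asked whether transecting the ligaments was accompanied by changes in these genes in the ganglia that supply the ankle. Of the members, 30 could be tested, namely the 21 integrins and 9 laminins that reached 0.5 FPKM in 3 or more libraries. By limma, 0 of the 30 passed an adjusted p of 0.05 with a fold of at least 1.5, and over all 14006 genes tested the share was 0%. At an unadjusted p of at most 0.05, 0 members were higher in LAS (2.22% of all genes) and 1, Itga11, was lower (1.31% of all genes). The libraries of the groups did not overlap for 1 member higher in LAS, Itgav (5.89% of all genes), and 1 lower, Itga11 (3.81% of all genes). With sham replicate 3 left out, 0 members passed after adjustment (0% of all genes), and an unadjusted p of 0.05 or less was reached by 1 higher member, Itgam (6.45% of all genes), and 1 lower, Itga11 (3.72% of all genes). The members' counts lay near these shares of all genes. The median log2 fold change was -0.02 for the integrins and 0.08 for the laminins, beside 0.00 for all genes tested. Without sham replicate 3 it was 0.10 for the integrins and -0.02 for the laminins, beside 0.02 for all genes.

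Itga11 encodes the alpha11 subunit, a collagen receptor of fibroblasts that pairs with beta1. Its level was 1.12, 0.96 and 0.93 FPKM in LAS libraries and 1.34, 1.48 and 1.33 FPKM in sham libraries, and every LAS library lay below every sham library. The means were 1.00 ± 0.102 FPKM in LAS and 1.38 ± 0.0839 FPKM in sham libraries (SD, n = 3 each). The log2 fold change was -0.43 (standard error 0.15, 95% interval -0.78 to -0.08), with an unadjusted p of 0.022 and an adjusted p of 1.00 from limma. Without sham replicate 3 its log2 fold change was -0.46 (adjusted p = 0.44 from limma). Of 7 tested fibroblast markers, 6 had a log2 fold change below 0, beside 6770 of all 14006 genes tested, and 0 passed the test. The groups did not overlap for 1 of the 7, lower in LAS (3.81% of all genes), and for 0 higher in LAS (5.89% of all genes). The mean log2 level of these 7 markers was 3.54, 4.27 and 3.92 in LAS libraries and 4.30, 3.70 and 4.14 in sham libraries, and the level of Itga11 relative to Dcn, the matrix proteoglycan decorin, overlapped between groups. Relative to its partner Itgb1, the level of Itga11 was 0.0168, 0.015 and 0.0138 in LAS libraries and 0.0218, 0.0238 and 0.0207 in sham libraries, without overlap. The part of fibroblasts in the Itga11 values was not tested. In bulk tissue, fewer cells of a type and less RNA per cell cannot be told apart. The other collagen-binding alpha subunits overlapped between groups, with log2 fold changes of 0.06 for Itga1, -0.12 for Itga2 and 0.04 for Itga10.

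Itgav encodes the alpha v subunit, which binds vitronectin, fibronectin and the latent form of transforming growth factor beta. Its level was 4.25, 4.36 and 4.85 FPKM in LAS libraries and 4.12, 4.19 and 3.17 FPKM in sham libraries. Each LAS library was above each sham library, but the nearest values of the groups, LAS replicate 1 and sham replicate 2, differed by little, and sham replicate 3 was lowest. The means were 4.49 ± 0.319 FPKM in LAS and 3.83 ± 0.57 FPKM in sham libraries (SD, n = 3 each). The log2 fold change was 0.23 (standard error 0.13, 95% interval -0.07 to 0.53, adjusted p = 1.00 from limma), and it was 0.11 without sham replicate 3 (adjusted p = 0.74 from limma). Of the beta subunits that pair with alpha v besides beta1, Itgb5 was at 12.01, 14.28 and 14.52 FPKM in LAS and 14.32, 13.04 and 14.62 FPKM in sham libraries. Itgb8, which with alpha v activates transforming growth factor beta, was at 6.83, 6.27 and 8.02 FPKM in LAS and 8.75, 6.88 and 4.03 FPKM in sham libraries. Both overlapped between groups (log2 fold changes of -0.04 and 0.16, and of -0.01 and -0.15 without sham replicate 3).

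**Figure D2:**
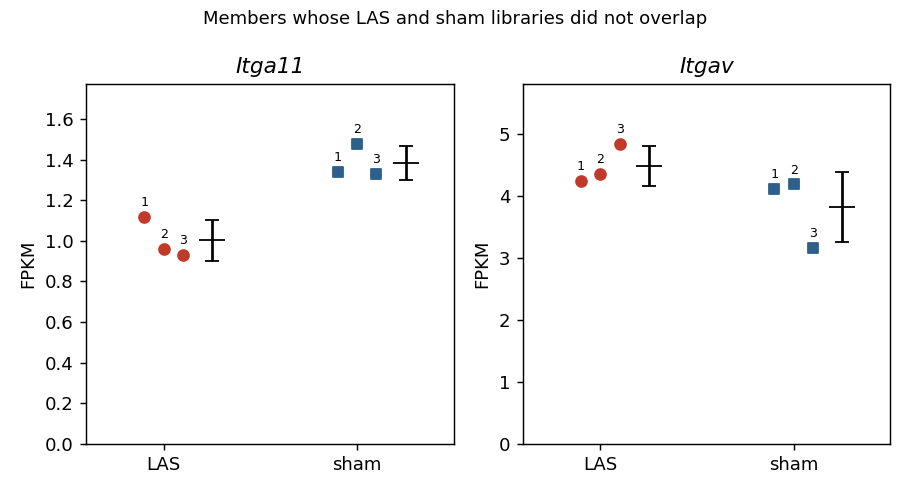
FPKM of Itga11 (left) and Itgav (right) in each library, LAS in red circles and sham in blue squares, numbered by replicate, with the mean and SD of each group in black. The LAS libraries of Itga11 sit between 0.93 and 1.12 FPKM, below all sham libraries, and for Itgav the lowest sham library is replicate 3 at 3.17 FPKM.

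The promoters of both genes are shown because these were the only members whose groups did not overlap, together with that of Itgam, a leukocyte integrin described further on. Each is the 250 bases before the RefSeq gene start on GRCm38.p6, and capitals mark GAGGAA or its reverse complement TTCCTC, the core of sites bound by PU.1 and related Ets factors. The build used for the deposited values is not stated, so these positions belong to the RefSeq sequences only. Itga11 lies on the plus strand at chr9:62677605-62677854, Itgav on the plus strand at chr2:83724147-83724396, and Itgam on the plus strand at chr7:128062390-128062639.
Itga11: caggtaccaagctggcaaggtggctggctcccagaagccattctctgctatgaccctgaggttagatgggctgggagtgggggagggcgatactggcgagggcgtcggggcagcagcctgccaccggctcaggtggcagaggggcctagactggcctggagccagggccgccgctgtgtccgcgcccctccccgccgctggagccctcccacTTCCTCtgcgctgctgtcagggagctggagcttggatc
Itgav: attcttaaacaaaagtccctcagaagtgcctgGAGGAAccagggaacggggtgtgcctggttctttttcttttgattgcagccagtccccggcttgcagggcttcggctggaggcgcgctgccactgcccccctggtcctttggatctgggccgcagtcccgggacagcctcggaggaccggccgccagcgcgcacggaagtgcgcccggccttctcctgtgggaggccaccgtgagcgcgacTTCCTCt
Itgam: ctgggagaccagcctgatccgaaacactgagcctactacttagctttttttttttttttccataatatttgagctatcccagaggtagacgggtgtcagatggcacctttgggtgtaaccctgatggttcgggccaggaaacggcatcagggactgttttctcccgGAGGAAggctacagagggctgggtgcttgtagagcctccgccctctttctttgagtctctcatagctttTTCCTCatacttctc
The core occurred 1 time before Itga11 and 2 times each before Itgav and Itgam. RefSeq sequences were matched for 23 of the 37 members, and 13 of these 23 held the core on either strand, beside 25.9% of all 27025 genes in the same table. The motif was chosen after the levels were known, and a match describes the letters only. GC made up 68.4% of the bases before Itga11, 64.4% before Itgav and 49.6% before Itgam.

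The abundant integrins were measured most precisely, and for them the intervals bound any difference closely. Itgb1 averaged 66.1 ± 1.98 FPKM in LAS and 62.7 ± 1.40 FPKM in sham libraries (SD, n = 3 each). The log2 fold change of Itgb1 was 0.08 (95% interval -0.04 to 0.20, adjusted p = 1.00 from limma), and LAS replicate 2 lay within the range of the sham libraries. Itga7 averaged 48.1 ± 2.99 FPKM in LAS and 50.3 ± 1.66 FPKM in sham libraries (SD, n = 3 each), with a log2 fold change of -0.07 (95% interval -0.22 to 0.08, adjusted p = 1.00 from limma). For Itga3 the log2 fold change was -0.03 (95% interval -0.22 to 0.16). For Itga6, the alpha subunit of the laminin receptors of Schwann cells and many epithelia, it was -0.02 (95% interval -0.26 to 0.23), and for Itgb5 it was -0.04 (95% interval -0.26 to 0.17). Itgb4 had a wider interval, -0.36 to 0.55 around 0.10, since LAS replicate 1 and sham replicate 3 were both well below the other libraries of their groups. The means of Itgb1 differed by more than either SD, but the groups overlapped for all 6 of these genes and none passed the test.

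The leukocyte integrins varied most, and mainly between libraries of the same group. Itgam encodes the alpha subunit of the complement receptor Mac-1 of neutrophils and macrophages. It was at 2.26, 1.19 and 1.9 FPKM in LAS libraries and 0.95, 0.99 and 8.2 FPKM in sham libraries. Itgb2 encodes CD18, the beta subunit shared by the leukocyte alpha subunits, and was at 3.77, 1.76 and 2.96 FPKM in LAS and 1.56, 1.87 and 11.94 FPKM in sham libraries. Both were highest in sham replicate 3, with LAS replicate 1 next. Itgal, the alpha subunit of the lymphocyte adhesion molecule LFA-1, was at 1, 0.42 and 0.74 FPKM in LAS and 0.63, 0.55 and 2.79 FPKM in sham libraries. Itgb7, a beta subunit of gut-homing lymphocytes, was at 1.59, 1.55 and 1.26 FPKM in LAS and 1.26, 1.14 and 3.02 FPKM in sham libraries. Relative to the mean of the other 2 sham libraries, sham replicate 3 held 8.45 times the Itgam, 6.96 times the Itgb2, 4.73 times the Itgal and 2.52 times the Itgb7. The ratio of Itgb2 to Itgam within a library stayed between 1.48 and 1.67 in LAS and between 1.46 and 1.89 in sham libraries.

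With all 6 libraries the log2 fold changes of these genes were below 0, at -0.21 for Itgam (95% interval -2.05 to 1.62), -0.28 for Itgb2 (-2.01 to 1.46), -0.50 for Itgal (-1.91 to 0.90) and -0.16 for Itgb7 (-0.98 to 0.66). Without sham replicate 3 all 4 were above 0. Itgam was then higher in all 3 LAS libraries than in the 2 remaining sham libraries, with a log2 fold change of 0.77 (standard error 0.26, 95% interval 0.15 to 1.39, adjusted p = 0.43 from limma), and Itgb2 had 0.63 (95% interval -0.06 to 1.33, adjusted p = 0.51 from limma). Neutrophil and marrow myeloid markers moved with them. S100a8, a calcium-binding protein of neutrophils, was at 109, 26.7 and 66.3 FPKM in LAS libraries and 17.7, 24.3 and 550 FPKM in sham libraries, and sham replicate 3 and LAS replicate 1 were the 2 highest libraries for 14 of 14 such markers. Macrophage markers (10 of 10 tested) spread less, with sums of 48.3 to 54.4 FPKM in LAS and 46.0 to 69.3 FPKM in sham libraries. None of the listed markers of these cell types was at 0 in every library, and their part in the integrin values was not tested.

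Itga2b and Itgb3 encode the 2 subunits of the platelet fibrinogen receptor. Itga2b was at 3.6, 1.54 and 2.29 FPKM in LAS and 1.67, 1.94 and 3.9 FPKM in sham libraries. Itgb3, which also pairs with alpha v in endothelium and osteoclasts, was at 3.95, 2.03 and 2.5 FPKM in LAS and 2.06, 2.33 and 3.31 FPKM in sham libraries. Both had LAS replicate 1 and sham replicate 3 as their 2 highest libraries, as did 6 of 6 tested megakaryocyte and platelet markers, which summed to 42.4, 15.4 and 20.4 FPKM in LAS and 14.0, 15.5 and 40.5 FPKM in sham libraries. The log2 fold changes were 0.00 for Itga2b (95% interval -0.91 to 0.91) and 0.11 for Itgb3 (95% interval -0.53 to 0.75). In all, LAS replicate 1 and sham replicate 3 were the 2 highest libraries for 7 of 21 tested integrins (Itga2b, Itga4, Itgal, Itgam, Itgb2, Itgb3 and Itgb7), or 33.3%, beside 14.4% of all genes tested. Itga4, which pairs with Itgb1 or Itgb7 on lymphocytes and monocytes, was at 1.47 to 2.18 FPKM in LAS and 1.41 to 2.5 FPKM in sham libraries.

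**Figure D3:**
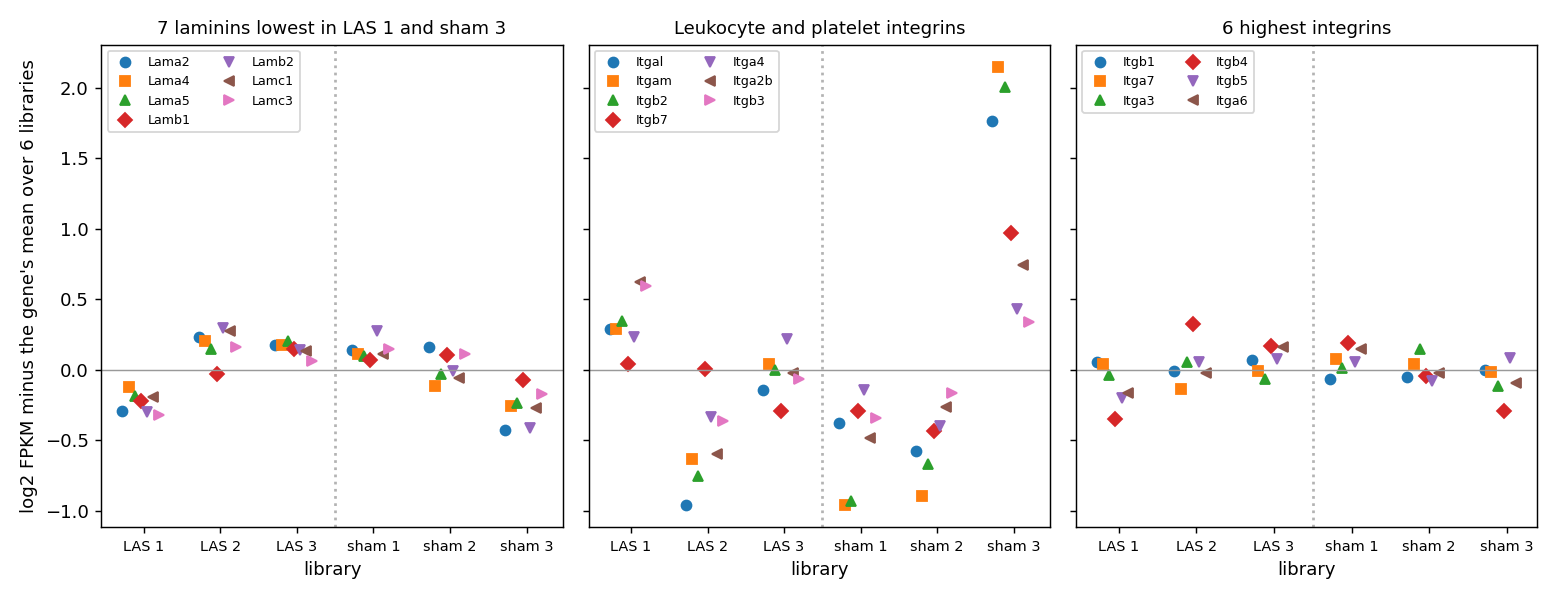
Log2 FPKM of each gene minus its mean over the 6 libraries, with LAS libraries left of the dotted line and sham libraries right of it, for 7 laminins (left), 7 integrins of leukocytes and platelets (middle) and the 6 highest integrins (right). The laminins are low in LAS replicate 1 and sham replicate 3, where the leukocyte and platelet integrins are high. Of the 6 highest integrins, Itga6 and Itgb4 have the same 2 lowest libraries as the laminins, as do 9.48% of all genes tested.

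The laminins showed the opposite arrangement, in the same 2 libraries. Lamc1 was at 10.75, 14.86 and 13.48 FPKM in LAS and 13.31, 11.78 and 10.21 FPKM in sham libraries. Lamb2, a beta chain of Schwann cell, synaptic and vascular basement membranes, was at 10.1, 15.25 and 13.7 FPKM in LAS and 15, 12.37 and 9.34 FPKM in sham libraries. LAS replicate 1 and sham replicate 3 were thus the lowest library of their own groups for both chains. Lama2 was at 3.4, 4.91 and 4.71 FPKM in LAS and 4.61, 4.67 and 3.11 FPKM in sham libraries. Lama4 was at 7.19, 8.98 and 8.82 FPKM in LAS and 8.44, 7.21 and 6.53 FPKM in sham libraries. Lamb1 was at 16.63, 18.96 and 21.44 FPKM in LAS and 20.35, 20.8 and 18.44 FPKM in sham libraries. These 2 libraries were the 2 lowest for 8 of the 9 tested laminins (88.9%), beside 9.48% of all genes tested, and Lama3 was the exception. Of 21 tested integrins, 2 had the same 2 lowest libraries, Itga6 and Itgb4, the subunits of the laminin receptor alpha6 beta4. That is 9.52% of the integrins, near the share of all genes. The arrangement of the laminins was noticed in the values, so their share is a description.

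Within the LAS group, replicate 1 held 0.759 times the Lamc1, 0.707 times the Lama2 and 0.698 times the Lamb2 of the mean of the other 2 libraries. Within the sham group, replicate 3 held 0.814 times the Lamc1, 0.670 times the Lama2 and 0.682 times the Lamb2 of the mean of the other 2. The sum over the 9 tested laminins was 52.5, 68.8 and 67.9 FPKM in LAS and 67.3, 62.0 and 52.2 FPKM in sham libraries. The spread within each group was therefore wider than the difference between the groups. Of the markers of cells that make basement membranes, the 10 Schwann cell and myelin markers summed to 3866, 6070 and 6104 FPKM in LAS and 4857, 4746 and 5270 FPKM in sham libraries, low in LAS replicate 1 but not in sham replicate 3. The 9 endothelial markers summed to 52.6, 68.3 and 59.2 FPKM in LAS and 58.8, 49.9 and 60.4 FPKM in sham libraries. For the 8 pericyte and smooth muscle markers the sums were 62.4, 99.9 and 70.5 FPKM in LAS and 75.9, 67.5 and 99.9 FPKM in sham libraries. Those sums too were low in LAS replicate 1 but not in sham replicate 3. Counted marker by marker, LAS replicate 1 and sham replicate 3 were the 2 lowest libraries for 3 of 7 fibroblast, 3 of 8 pericyte and smooth muscle, 3 of 8 satellite glia, 2 of 10 Schwann cell and 1 of 9 endothelial markers. Over all genes tested, these were the 2 lowest libraries for 9.48%. The fibroblast markers counted were Col3a1, Dcn and Pdgfra, but sham replicate 3 was the lowest library for 0 of the 7. All 7 together summed to 320.2, 462.1 and 399.2 FPKM in LAS and 504.5, 359.7 and 429.4 FPKM in sham libraries. The 8 satellite glia markers summed to 2754, 2938 and 2894 FPKM in LAS and 3044, 2976 and 3155 FPKM in sham libraries. The part of these cells in the laminin values was not tested.

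Between the groups, 7 of the 9 tested laminins had a log2 fold change above 0 and 2 below 0, and 0 passed the test. The largest was that of Lama4, 0.17 (standard error 0.13, 95% interval -0.13 to 0.47, adjusted p = 1.00 from limma), followed by Lamc1 at 0.14 (95% interval -0.20 to 0.48). Lamb1 was at -0.07 (95% interval -0.31 to 0.17). Without sham replicate 3, 4 of the 9 were above 0, Lama4 was at 0.09 and Lamc1 at 0.04. Lamc3, another gamma chain, was at 0.83, 1.16 and 1.08 FPKM in LAS and 1.15, 1.12 and 0.92 FPKM in sham libraries and overlapped, but its share of the gamma sum was 6.79% to 7.03% in LAS libraries, against 7.55% to 8.22% in sham libraries. Such shares did not overlap for 5 of the 37 members, 3 higher in LAS (Itga9, Itgae and Itgav) and 2 lower (Itga11 and Lamc3). The levels of Itga9 and Itgae overlapped between groups. Their nearest LAS and sham shares were 1.26% against 1.25% for Itga9 and 0.217% against 0.206% for Itgae. Shares of a sum have no counterpart over all genes, and for levels 5.89% of all genes were without overlap higher in LAS and 3.81% lower.

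**Figure D4:**
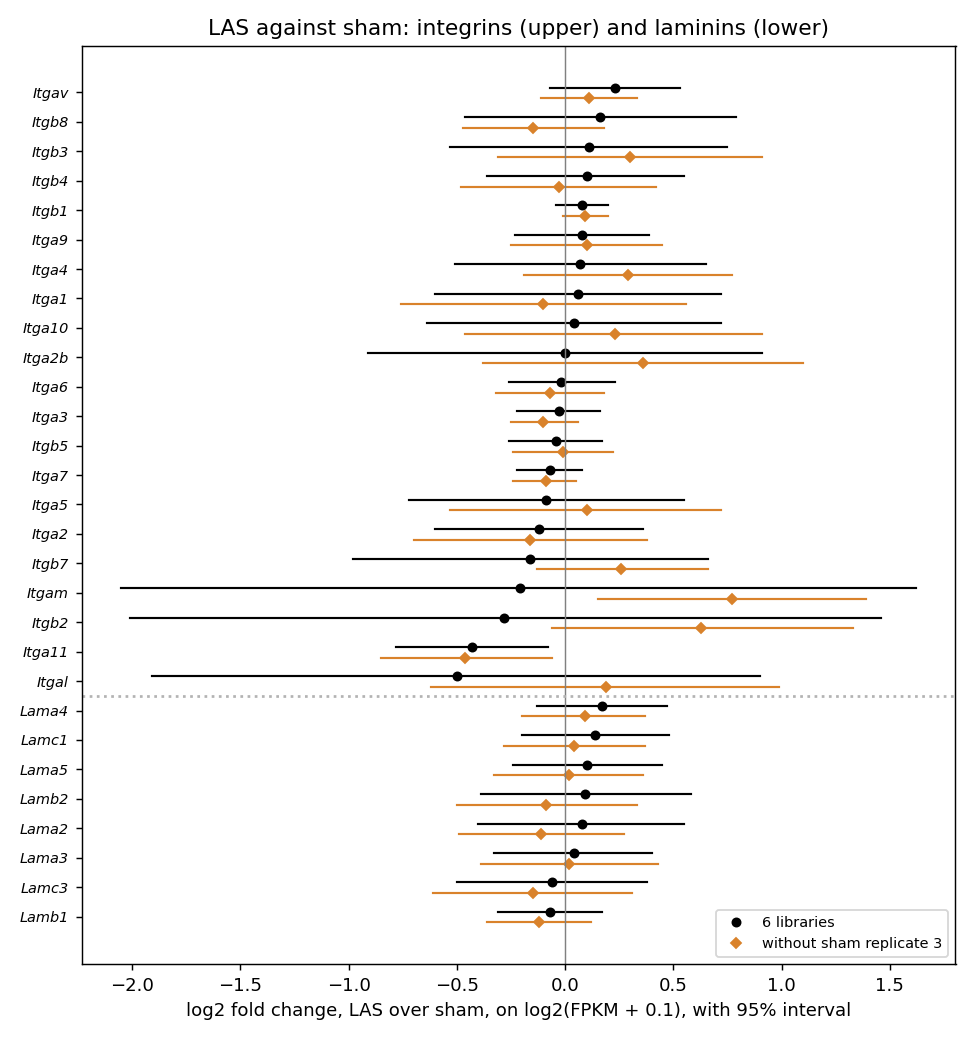
Log2 fold change of LAS over sham with its 95% interval for the 21 tested integrins (above the dotted line) and 8 of the 9 tested laminins (below it), with all 6 libraries (black circles) and without sham replicate 3 (orange diamonds). Only the intervals of Itga11 in both fits and of Itgam without sham replicate 3 leave out 0, and neither gene passes after adjustment over all genes.

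The other 7 members were too low to be tested, all at or below 0.55 FPKM in every library. Itga8, an RGD-binding alpha subunit, was at 0.14, 0.31 and 0.3 FPKM in LAS and 0.15, 0.18 and 0.18 FPKM in sham libraries. Itgax and Itgad, alpha subunits of dendritic cells and macrophages, Itgae, that of intraepithelial lymphocytes, and Itgb6, of epithelia, ranged from 0.01 FPKM for Itgad in sham replicate 1 to 0.45 FPKM for Itgb6 in sham replicate 3. Lama1 was at 0.38 to 0.49 FPKM in LAS and 0.36 to 0.55 FPKM in sham libraries, and Lamb3 at 0.05 to 0.14 FPKM in LAS and 0.05 to 0.13 FPKM in sham libraries. The groups overlapped for all 7, by a shared value of 0.23 FPKM in the case of Itgae. Whether reads were counted by strand is not stated, and exons of 3 members overlap a gene on the opposite strand that has a row of its own. Mettl7b, opposite Itga7, did not exceed 0.13 FPKM and Cerkl, opposite Itga4, did not exceed 0.53 FPKM, whereas Cox6a2, a muscle gene opposite Itgad, reached 23.8 FPKM in sham replicate 3, so the low values of Itgad are uncertain.

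The partners of these receptors were likewise called in neither direction. Of 18 tested basement membrane partners and non-integrin laminin receptors, 0 passed the test and the median log2 fold change was 0.02. An unadjusted p of 0.05 was reached by 0 in either direction (2.22% of all genes higher and 1.31% lower). The laminin receptor Bcam was at 336, 338 and 300 FPKM in LAS and 317, 336 and 324 FPKM in sham libraries. Dag1, which encodes dystroglycan, the laminin receptor linked to dystrophin, was at 43.4, 57.1 and 56.6 FPKM in LAS and 57.7, 55.0 and 46.5 FPKM in sham libraries, lowest in LAS replicate 1 and sham replicate 3 as the laminins were. Rpsa, which encodes a ribosomal protein also described as a laminin receptor, was at 226 to 243 FPKM in LAS and 224 to 317 FPKM in sham libraries. The mean log2 level of the 18 partners was likewise lowest in LAS replicate 1 (3.68) and sham replicate 3 (3.65). In the other libraries it was 3.84 to 4.01. Their summed level was lowest in LAS replicate 1 (769 FPKM) but highest in sham replicate 3 (852 FPKM). The 3 partners with the smallest p were Fbln1, a fibulin (log2 fold change 0.65, adjusted p = 1.00 from limma), Col15a1 (-0.24, adjusted p = 1.00) and Smoc1 (0.21, adjusted p = 1.00). Fbln1 was at 3.39, 7.62 and 2.61 FPKM in LAS and 3.19, 2.56 and 2.08 FPKM in sham libraries. Its highest value was thus in LAS replicate 2, the library with the most leptomeningeal RNA.

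Of 17 tested integrin ligands other than laminins, 0 passed the test. At an unadjusted p of at most 0.05, 1, Ccn1, was lower (1.31% of all genes) and 0 were higher (2.22% of all genes). Ccn1, a matricellular protein that binds alpha v and alpha6 integrins, was at 2.19, 4.34 and 4.53 FPKM in LAS and 7.38, 4.25 and 7.92 FPKM in sham libraries. The difference was -0.82 on the log2 scale, with a standard error of 0.33 and an adjusted p of 1.00 from limma, and sham replicate 2 lay among the LAS libraries. Thbs1 (0.44) and Postn (-0.17) had the next smallest p, and the most abundant ligands were Spp1, which encodes osteopontin, at 103 to 138 FPKM in LAS and 89.0 to 167 FPKM in sham libraries, Egfl7 and Vtn. Vtn, vitronectin, was at 35.0 FPKM in LAS replicate 2, the library with the most leptomeningeal RNA, and at 10.5 to 12.3 FPKM in the other 5.

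Of 36 tested genes of integrin activation and adhesion complexes, 0 passed the test and the median log2 fold change was -0.01. An unadjusted p of 0.05 was reached by 0 (2.22% of all genes higher and 1.31% lower). Groups did not overlap for 5.89% of all genes with LAS higher and 3.81% with LAS lower. Lims1, which encodes the adaptor PINCH in the complex with integrin-linked kinase, was at 20.6, 19.3 and 20.4 FPKM in LAS and 19.0, 19.0 and 18.5 FPKM in sham libraries. It was the only one of the 36 whose groups did not overlap (log2 fold change 0.09, adjusted p = 1.00 from limma). Its kinase partner Ilk was at 88.5, 98.1 and 87.6 FPKM in LAS and 87.8, 85.2 and 101 FPKM in sham libraries. Ptk2b (-0.16), a focal adhesion kinase family member, and Vcl (0.09), vinculin, had the other smallest p, and the tetraspanins Cd9 and Cd151, which associate with laminin-binding integrins, had log2 fold changes of 0.00 with all 6 libraries.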

How the data were processed

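RNA of ipsilateral L3-5 DRG was sequenced on BGISEQ-500 in 6 libraries, and the authors deposited FPKM values per gene, rounded to 2 decimals. Reads were aligned to the mouse genome, and the sources used here name no aligner, build or strand setting. FPKM keep no counts, so counting error is not given. Columns of log2 fold changes, p-values and q-values from the authors' own comparison were deposited in the same table and not used here. Of 22064 rows, 2758 blank in every library were left out.

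LAS was compared with sham on log2(FPKM + 0.1) with limma 3.58.1 (R 4.3.3, mean-variance trend, Benjamini-Hochberg adjustment) over the 14006 genes that reached 0.5 FPKM in 3 or more libraries. The added 0.1 shrinks the fold changes of low genes. A call needed an adjusted p no higher than 0.05 together with a 1.5-fold difference or more. The test was checked on simulated data. Alternatives were the pseudocount, filter, scaling, trend, replicate block, thresholds and leaving out libraries. Full statistics are given for the members with the smallest p, largest fold change or highest level and those whose groups do not overlap; of each partner list, the 3 with the smallest p and the 3 highest are named. The values of 1 laminin are not reported here, though it enters counts, sums and medians. Members and lists were chosen with earlier results of these data known. Promoters came from RefSeq (GRCm38.p6). Python 3.11.15, pandas 2.3.3 and matplotlib 3.10.9 were used for summaries and figures.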

Additional observations from a re-analysis of the deposited data

How the results depend on the processing

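The 0 calls over all genes and the 0 calls among integrins and laminins held with a pseudocount of 0.01 or 1, no filter or one of 1 FPKM, upper-quartile scaling, no trend, a replicate block, a log2 fold minimum of 1.5 and each library left out. Taking limma's p at 0.05 without adjustment gave 495 genes, 1 of them a member. With sham replicate 3 and LAS replicate 2 both left out, 5 genes were called and 0 members; the 5, named after their values were seen, were Cd300ld3, Cd300ld5, Hp, Ifitm6 and Slc4a1. The integrin median was -0.076 to 0.095 when 1 library was left out (0.095 without sham replicate 3) and 0.075 with LAS replicate 1 and sham replicate 3 both left out, a pair chosen after seeing the data. In the run without sham replicate 3 and in that pair, the integrin median moved by more than 1 SD of the replicates (0.089). In the other runs it did not. The laminin median was -0.023 to 0.238 over the same runs and -0.123 with sham replicate 3 and LAS replicate 2 both left out. These laminin shifts lay within 1 SD of the replicates (0.201).

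Deviations of same-numbered libraries from their group means correlated at -0.41, 0.24 and -0.15. Deviations from a mean of 3 libraries depend on each other, so these values cannot decide whether the numbers mark pairs. With the replicate block 0 genes were called, 321 genes had an unadjusted p of at most 0.05, and that of Itga11 was 0.057. Its log2 fold change was -0.53 to -0.25 over all alternatives, the added pair included (adjusted p 0.41 to 1.00), and its unadjusted p exceeded 0.05 also without LAS replicate 2 (0.058), LAS replicate 3 (0.072) or sham replicate 2 (0.075).

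The sign of 6 members (Itga11, Itga7, Itga9, Itgav, Itgb1 and Lama4) held under all alternatives planned for single genes, and none of the 30 was called in any. For 21 members it turned when 1 library was left out, with log2 fold changes of -0.10 to 0.33 for Itga1, -0.17 to 0.25 for Itga10, -0.24 to 0.016 for Itga2, -0.30 to 0.36 for Itga2b, -0.10 to 0.035 for Itga3, -0.10 to 0.29 for Itga4, -0.34 to 0.10 for Itga5, -0.10 to 0.06 for Itga6, -0.89 to 0.185 for Itgal, -0.72 to 0.77 for Itgam, -0.80 to 0.63 for Itgb2, -0.15 to 0.31 for Itgb3, -0.042 to 0.30 for Itgb4, -0.094 to 0.043 for Itgb5, -0.40 to 0.26 for Itgb7, -0.15 to 0.40 for Itgb8, -0.11 to 0.24 for Lama2, -0.02 to 0.082 for Lama3, -0.16 to 0.023 for Lamb1, -0.086 to 0.27 for Lamb2 and -0.15 to 0.074 for Lamc3. Without sham replicate 3 and LAS replicate 2 it turned for 11, at -0.14 for Itga1, 0.48 for Itgal, 1.02 for Itgam, 0.93 for Itgb2, -0.16 for Itgb4, 0.22 for Itgb7, -0.067 for Itgb8, -0.21 for Lama2, -0.028 for Lama5, -0.21 for Lamb2 and -0.056 for Lamc1. With a pseudocount of 1 Itga2b was at -0.0003. The cause was not tested. The half-width of the 95% interval ran from 0.12 for Itgb1 to 1.83 for Itgam.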
